A study of Neurospora crassa with 22 samples.

Results

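CLR-2 binding on Avicel, a crystalline cellulose, was mapped in the filamentous fungus Neurospora crassa by ChIP-seq, in which DNA bound to a tagged protein is recovered with an antibody and sequenced, in 1 library after 24 h and 3 libraries after 4 h. The members are the 1672 peaks of the only 24 h list, set against 2999, 1920 and 4528 peaks in 4 h lists 1, 2 and 3, out of 42691 peaks in the 17 lists of the series. The lists were chosen by their labels, which write the time without a unit, read here as hours. The series holds 22 samples and asks which genes CLR-1, CLR-2 and XLR-1 bind. All 4 libraries used here were of strain OR74A (FGSC2489), grown on sucrose and then moved to Avicel, and were pulled down through an mCherry tag. The 24 h library came from a heterokaryon, a mycelium with nuclei of more than 1 genotype, with his-3::p_ccg1::mCherry-clr2 and mating type a, and its label names no clr-2 deletion. The 4 h libraries carried the same construct with deltaclr2::HygR, a deletion of the native clr-2, and mating type A (matA). In both, the construct at his-3 is driven by the ccg-1 promoter and not by the promoter of clr-2. Time, genotype, mating type and library differ together between the groups and cannot be told apart, and the 24 h group has no replicate. Every value below is therefore a description of these lists, with no test.

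CLR-2 is a transcription factor of the fungal zinc-cluster family. When cellulose is the carbon source, it is needed for the expression of genes for secreted cellulases, for lytic polysaccharide monooxygenases, which cut cellulose chains by oxidation, and for transporters of the released cellodextrins. Its partner CLR-1 acts in the same response, and XLR-1 is the regulator of xylan-degrading enzymes.

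The 4 lists differed in depth and in their deposited statistics. Depth is visible only as the number of sequence tags per peak, whose median was 2898 at 24 h, against 105, 1455.5 and 290 in 4 h lists 1 to 3. The authors' fold enrichment, read here as their ratio of tags to local background, had a median of 2.26 at 24 h, against 0.5, 2.25 and 1.15 in 4 h lists 1 to 3. In 4 h list 1, 95.7% of peaks had a fold below 1, and in 4 h list 3, 33.3%, whereas no peak of the 24 h list or of 4 h list 2 did. The median score, 10 times the −log10 of the p-value, was 179.09 at 24 h, against 1231.7, 163.22 and 317.27 in 4 h lists 1 to 3. List 1 thus had the lowest folds with the highest scores. The control used for each list is unknown, so the low folds of list 1 are not read as weak binding. A false discovery rate (FDR) of at most 5% was given to 396 peaks (23.7%) at 24 h, against 1831, 3 and 1667 peaks in 4 h lists 1 to 3. Tags and folds are therefore ranked within a list and not compared in size between lists, and list 1, which stands apart in fold, is left out in turn below. Where tags or folds of several lists are printed side by side, the difference in size is not read as a change with time. The list numbers are those of the deposited tables and could not be tied to library numbers.

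Beside a set of cellulase, monooxygenase and xylanase genes, CLR-2 peaks had summits at nearly the same base at both times. A summit, the highest point of a peak, lay within 1500 bp of the start codon of 1258 genes at 24 h (12.9% of the 9729 protein-coding genes on the 7 chromosomes), and of 60 genes in all 3 4 h lists (0.617%). The 2 sets shared 29 genes (0.298%), which is 48.3% of the 60. These 29 genes lie beside 23 different 24 h peaks, since some neighbouring genes share a peak. Of the 29, 16 belong to the lists of plant cell wall genes described below, among 88 list genes in all and beside 0.298% over all genes, and 13 do not. Some of the 13, such as NCU00207 beside cdh-1, share the peak of a list gene and are not separate sites. In 25 of the 29, the summit was upstream of the start codon in all 4 lists. The median distance between the 24 h summit and the summit of 4 h lists 1, 2 and 3 was 51, 19 and 24 bp. Among themselves the 3 4 h lists spanned a median of 50 bp at these genes. In 21 of the 29 genes, all 3 4 h summits were within 100 bp of the 24 h summit. All genes that share a peak with another of the 29 are among these 21, so the share by peak is lower. The medians also count such a peak more than once. With list 1 left out, 129 genes had a near summit in the other 4 h lists and 70 of them (54.3%) at 24 h, with median distances of 27 and 28 bp to lists 2 and 3. With list 2 left out, these counts were 470 and 97 (20.6%), with medians of 393 and 159 bp to lists 1 and 3, and with list 3 left out, 105 and 35 (33.3%), with medians of 64 and 27 bp to lists 1 and 2.

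**Figure D1:**
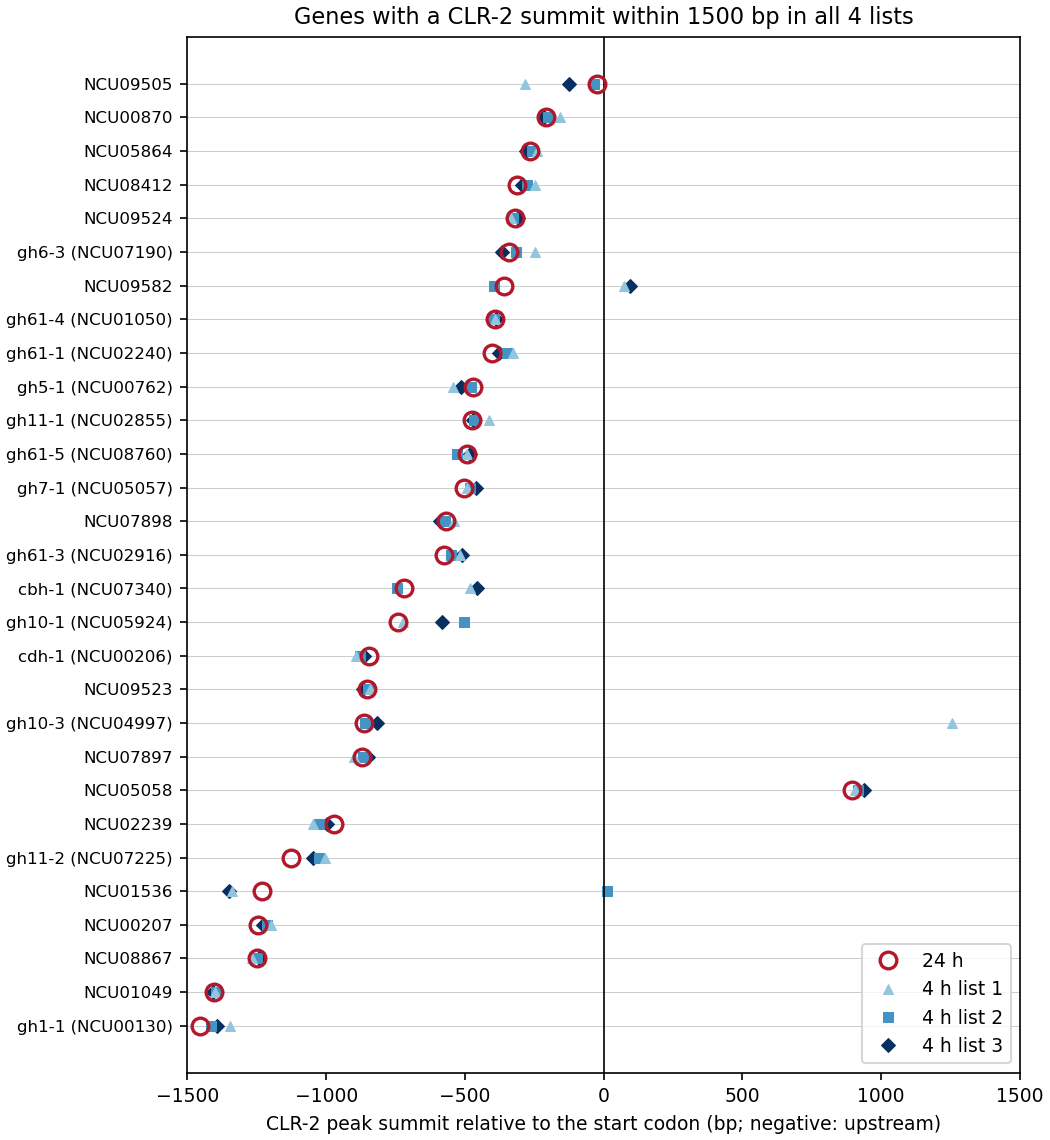
Position of the CLR-2 peak summit relative to the start codon, in bp with upstream as negative, for the 29 genes with a summit within 1500 bp in all 4 lists. Each row is a gene, the open circle is the 24 h list and the filled symbols are the 3 4 h lists. In most rows the 4 symbols lie on top of each other, and 1 or more 4 h symbols stand apart at gh10-3, NCU01536, NCU09582, cbh-1, NCU09505 and gh10-1.

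The peak of most tags at 24 h lay beside cbh-1 (NCU07340) and its neighbour NCU07339. The gene cbh-1 encodes a cellobiohydrolase, an enzyme that releases cellobiose from chain ends. Its 24 h peak on chromosome IV, between 4310414 and 4322167 on the NC12 assembly, held 40878 tags, and its peaks at 4 h held 120, 12838 and 4023 tags in lists 1 to 3. This peak ranked first by tags at 24 h and in 4 h list 2, near the top of list 3 and at percentile 53.6 of list 1. Its summit lay 718 bp upstream of the start codon at 24 h, against 481, 744 and 455 bp at 4 h. The 24 h summit at cbh-1 thus lay with that of list 2 and apart from those of lists 1 and 3.

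The highest fold at 24 h, 20.12, was at gh61-5 (NCU08760), a lytic polysaccharide monooxygenase, against 0.76, 12.93 and 8.8 in 4 h lists 1 to 3. Its summit lay 494 bp upstream of the start codon at 24 h, against 494, 529 and 481 bp at 4 h. The closest match among the named enzymes was gh61-4 (NCU01050), another monooxygenase, with a summit at 392 bp at 24 h and at 393, 397 and 388 bp at 4 h. Its fold was 14.6 at 24 h and 0.43, 12.34 and 6.83 in 4 h lists 1 to 3. At gh5-1 (NCU00762), an endoglucanase that cuts within the cellulose chain, the fold was 19.07 at 24 h and 0.29, 7.96 and 4.58 at 4 h. The endoglucanase gene gh7-1 (NCU05057) had a fold of 15.39 at 24 h and of 1.77, 12.61 and 8.94 at 4 h. The cellobiose dehydrogenase gene cdh-1 (NCU00206), whose product passes electrons to the monooxygenases, had 14.97 at 24 h and 0.32, 9.01 and 11.12 at 4 h. In each of these genes list 1 was the only one of the 4 lists with a fold below 2.

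Genes were counted over 10 lists of 88 genes, covering plant cell wall degradation, sugar transport, regulators, starch, secretion, housekeeping and the construct. Of the 88, 36 were named at 24 h and in at least 2 of the 3 4 h lists, beside 4.99% of all protein-coding genes. The authors' columns name the gene that a summit lies in and the flanking genes whose start codons face it. In all, 2122 genes were named at 24 h (21.8% of 9729), against 1444 (14.8%), 695 (7.14%) and 3083 (31.7%) in 4 h lists 1 to 3 and 1250 (12.8%) in at least 2 of them. Of 15 genes for cellulose degradation, 12 were named at 24 h, 9 in at least 2 4 h lists and 8 in both. Of 14 monooxygenase genes, 12 were named at 24 h and 10 in at least 2 4 h lists, and those 10 were all among the 12. The median 24 h fold of the genes named was 9.88 for the cellulose list and 10.8 for the monooxygenases, beside 2.25 for all genes named at 24 h. By fold within each list, the cellulose genes named had a median percentile of 98.5 at 24 h, against 17.4, 99.0 and 88.9 in 4 h lists 1 to 3. The same percentile over all genes named was 48.6 at 24 h, against 50.4, 62.4 and 67.5 in 4 h lists 1 to 3. The cellulose genes thus stood at the top by fold at 24 h and in 4 h list 2 and below the middle of list 1.

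For hemicellulose, 12 of 16 xylan and pentose genes were named at 24 h, 6 in at least 2 4 h lists and 5 in both. The shares over all genes were 21.8%, 12.8% and 4.99%. The endoxylanase genes gh11-1 (NCU02855) and gh11-2 (NCU07225) were among the 5 in both, with folds of 12.36 and 10.91 at 24 h. At gh11-1 the summit was 475 bp upstream at 24 h, against 415, 468 and 472 bp at 4 h. At gh10-1 (NCU05924), also an endoxylanase, it was 740 bp upstream at 24 h, against 722, 503 and 581 bp at 4 h. The endoxylanase gene gh10-2 (NCU08189) was named in all 3 4 h lists and not at 24 h, with summits 1001 and 1123 bp from the start codon in lists 2 and 3 and none within 1500 bp in list 1. Its 4 h peaks with most tags were others, with summits 10577, 7530 and 2945 bp away. Of 6 mannan and pectin genes, 3 were named at 24 h, all of them also in at least 2 4 h lists. Among these, NCU08412 had the third highest fold of any 24 h peak, 19.01, against 0.97, 13.34 and 9.38 in 4 h lists 1 to 3.

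**Figure D2:**
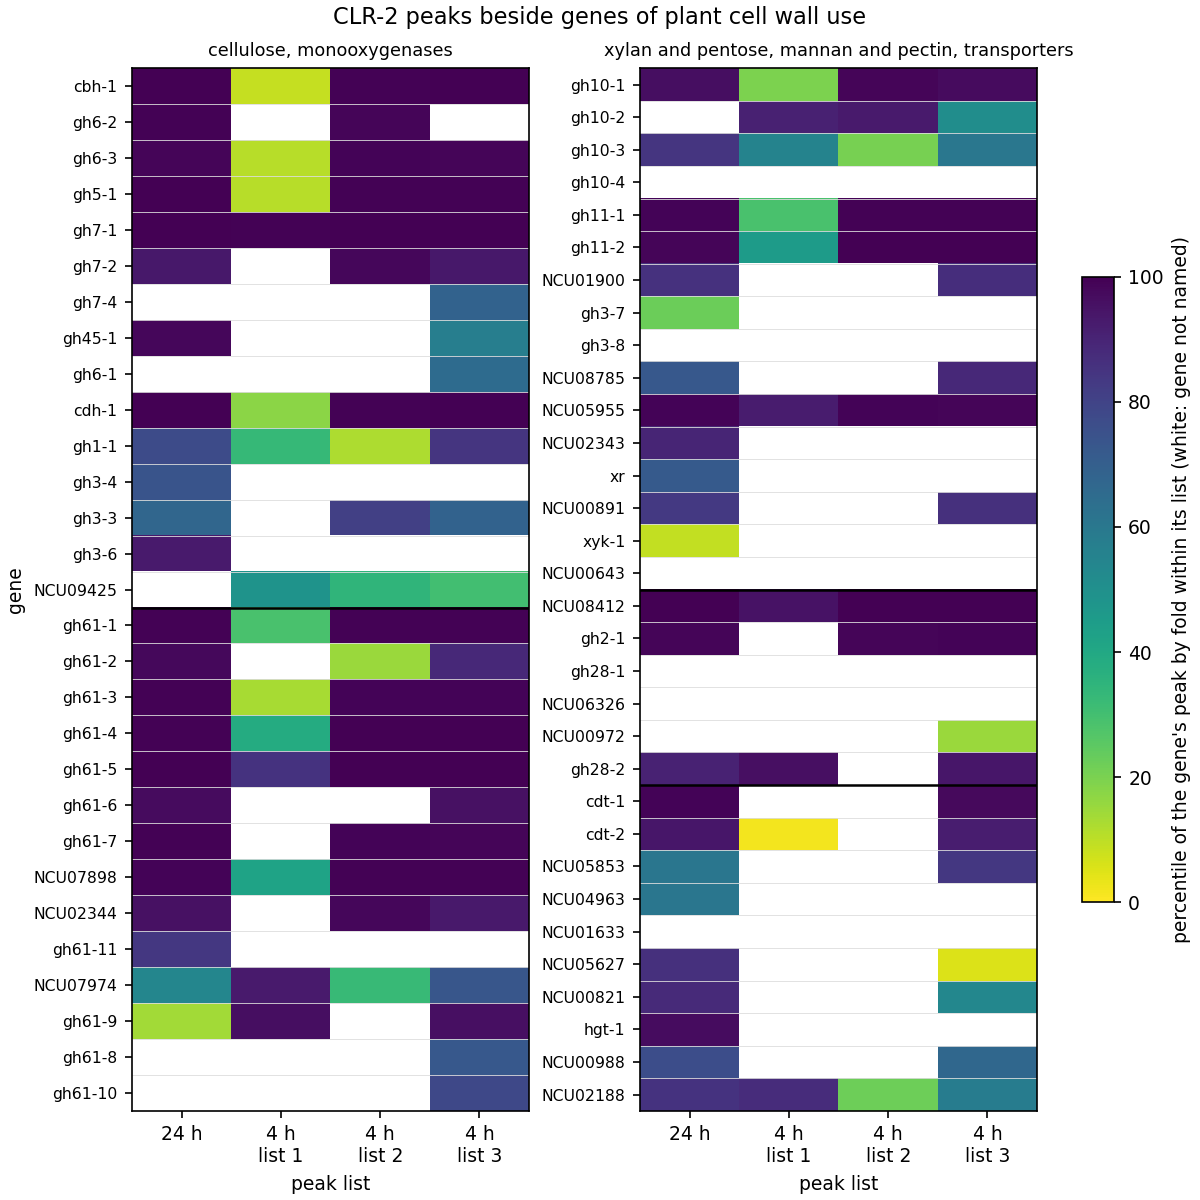
Percentile by fold, within its own list, of the peak beside each gene of 5 gene lists (rows), in the 24 h list and the 3 4 h lists (columns); the gene's peak with most tags is used and white means that the list does not name the gene. Most cellulose and monooxygenase genes are dark at 24 h and in 4 h lists 2 and 3, and pale or white in 4 h list 1, and the transporters are named at 24 h and, of the 4 h lists, chiefly in list 3.

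Of 10 sugar transporter genes, 9 were named at 24 h, beside 21.8% of all genes, and 2 in at least 2 4 h lists, beside 12.8%, both of them also at 24 h. Within 1500 bp, 4 of the 10 were named at 24 h, beside 14.7% of all genes, and none in at least 2 4 h lists, beside 6.91%. Upstream summits without a usable distance to the start codon are not counted, which leaves out cdt-1 at 24 h, described below. Of the 2 at 4 h, NCU02188 had its 4 h peaks with most tags at summits between 13156 and 33685 bp from its start codon, against 586 bp at 24 h. At 4 h, list 3 by itself named 7 of the 10, and 3 were in no 4 h list. The cellodextrin transporter gene cdt-1 (NCU00801) had 22237 tags and a fold of 12.19 at 24 h, and of the 4 h lists only list 3 named it, with 1533 tags and a fold of 2.56. Within their lists these peaks ranked alike, at percentile 99.7 by tags and 98.9 by fold at 24 h, and at 98.8 and 97.4 in list 3. The 24 h summit of cdt-1, at 7124629, had no usable distance. In list 3 the summit was at 7124296, 376 bp from the start codon, so the count within 1500 bp at 24 h is too low by this gene. The 24 h peak of cdt-1 nevertheless overlapped a peak in all 3 4 h lists, since the gene columns go by the summit. The second cellodextrin transporter gene, cdt-2 (NCU08114), had 27654 tags and a fold of 5.74 at 24 h, against 52 tags in 4 h list 1 and 1283 in list 3. Its percentile by tags was 99.9 at 24 h, 21.6 in list 1, where the FDR was 100%, and 97.9 in list 3. Its summit was 1556 bp from the start codon at 24 h, against 3540 bp in list 1 and 1614 bp in list 3. The hexose transporter gene hgt-1 (NCU10021) had 21285 tags and a fold of 6.91 at 24 h and was named in no 4 h list, although its peak overlapped 1 in a single 4 h list.

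Of 10 genes for regulators of carbon use, 9 were named at 24 h, beside 21.8% of all genes. In at least 2 4 h lists 6 were named, beside 12.8% of all genes, and all 6 also at 24 h. Within 1500 bp, 2 of the 10 were named at 24 h, near the 14.7% over all genes, against 11 of the 15 cellulose genes. None of the 10 was named within 1500 bp in at least 2 4 h lists, beside 6.91% of all genes and 9 of the 15 cellulose genes. At vib-1 (NCU03725), for example, the 4 h peaks with most tags had summits 10907, 14367 and 14380 bp upstream. At clr-2 itself (NCU08042), the 24 h summit was 1638 bp upstream with a fold of 3.67, against 2036 bp and a fold of 2.56 in 4 h list 2 and 1913 bp and 0.84 in list 3. The 4 h strain carries its deletion at this locus. At xlr-1 (NCU06971) the summit was 5666 bp upstream at 24 h, against 6895, 6895 and 5590 bp at 4 h, with a fold of 7.45 at 24 h. At clr-1 (NCU07705), the 24 h peak with most tags had a fold of 2.21, an FDR of 46.1% and a summit 2775 bp upstream. Another 24 h summit lay 396 bp from the clr-1 start codon, and no 4 h list named the gene. At cre-1 (NCU08807), which encodes a repressor of genes for other carbon sources when glucose is present, the fold was 4.83 at 24 h, against 1.11 in 4 h list 1 and 2.19 in list 3. These folds belong to different summits. The 24 h summit was 5123 bp upstream, against 1853 bp in list 1 and nearly the same distance in list 3. The 24 h peak nevertheless overlapped a peak in all 3 4 h lists.

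Of 7 housekeeping genes, 2 were named at 24 h, beside 21.8% of all genes, and none in at least 2 4 h lists, beside 12.8%. With so few genes, these counts are not read as a difference from the shares over all genes. The 2 were gpd-1 and pma-1 (NCU01680), and the 24 h peak of pma-1 had a fold of 1.87 and an FDR of 78.7%. Actin (act), tef-1 and the histone genes hH3 and hH4-1 were named in none of the 4 lists. The glyceraldehyde-3-phosphate dehydrogenase gene gpd-1 (NCU01528) had a fold of 6.3 and 11636 tags at 24 h, with a peak that overlapped all 3 4 h lists, of which list 3 named the gene. Of 4 starch genes, 2 were named at 24 h and 1 in at least 2 4 h lists. Of 4 secretion genes, 3 were named at 24 h and 1 in at least 2 4 h lists. These lists of 4 genes stand beside the same 21.8% and 12.8% of all genes and are too short to be set apart from them. Of the genes the construct borrows from, ccg-1 (NCU03753) was named at 24 h, with a fold of 2.5, and in 4 h list 1, and his-3 (NCU03139) in 4 h list 1 only.

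Over the whole list, most 24 h peaks were in at most 1 4 h list. Of the 1672 peaks at 24 h, 794 (47.5%) overlapped no 4 h peak by 1 bp or more, 515 (30.8%) overlapped 1 list, 256 (15.3%) 2 lists and 107 (6.4%) all 3. The share that overlapped 4 h lists 1, 2 and 3 was 17.5%, 18.7% and 44.4%, list 3 being the longest. At least 2 lists were overlapped by 363 peaks (21.7%), and with list 1, 2 or 3 left out, the share in both remaining lists was 13.3%, 13.9% and 7.36%. Where peaks overlapped, the median distance from the 24 h summit to the 4 h summit was 1111, 1259 and 328 bp in lists 1 to 3. Summits within 250 bp made up 16.8%, 24.9% and 45.6% of these peaks. Summits at the 29 genes above thus lay closer together than those of overlapping peaks in general, although near summits were part of how the 29 were chosen.

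The share of 24 h peaks that were also present at 4 h increased with rank. In the 10% of the 24 h list with most tags, 55.4% overlapped at least 2 4 h lists and 11.3% overlapped none. In the 10% with fewest tags, 12% overlapped at least 2 and 63.5% none. Ranked by fold, 62.5% of the top 10% and 11% of the bottom 10% overlapped at least 2 lists. The median tags percentile was 38.8 for 24 h peaks in no 4 h list, 55.2 for those in 1, 69.0 for those in 2 and 81.5 for those in all 3. Of the 25 peaks with the highest fold at 24 h, between 9.78 and 20.12, 20 overlapped all 3 4 h lists, 24 at least 2, and 18 lay beside a gene of the 10 lists. These lists hold 88 of the 9729 protein-coding genes and were chosen with earlier results of these data known. The share of all 24 h peaks beside a list gene was not counted. Peaks with more tags are also wider, with a median width of 3747 bp for 24 h peaks in all 3 4 h lists and 2418.5 bp for those in none, and the part of width in these shares was not tested. Ranked by tags per bp, the medians were 37.6, 55.8, 70.0 and 87.1 in the same order.

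**Figure D3:**
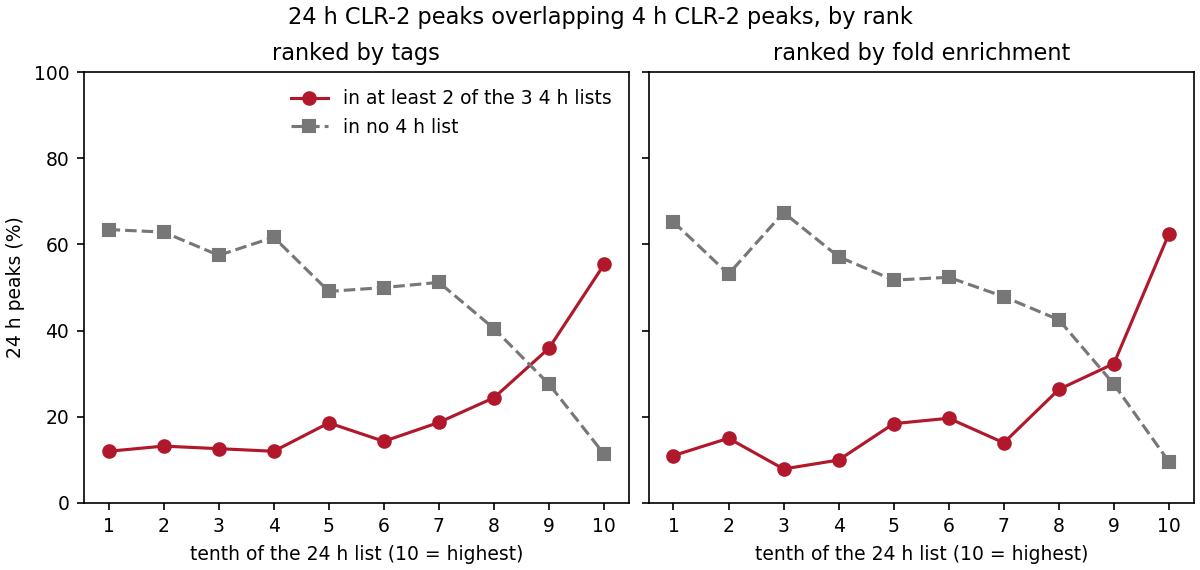
Percent of 24 h CLR-2 peaks that overlapped at least 2 4 h lists (circles) or none (squares), in 10 equal steps of the 24 h list, ranked by tags (left) and by fold enrichment (right), with the highest step at the right. In the top step by tags 55.4% were in at least 2 4 h lists and 11.3% in none.

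Seen from the 4 h lists, 10.9%, 17.4% and 20.7% of the peaks of lists 1, 2 and 3 overlapped a 24 h peak. Between themselves the 4 h lists overlapped at 39.3% to 78.2%. Much of this gap lay far from genes. A summit more than 5 kb from any protein-coding gene was found in 19 peaks (1.14%) at 24 h, against 40.1%, 44.5% and 30.3% of the peaks of 4 h lists 1 to 3. No 24 h summit was more than 10 kb from a gene, against 29.6%, 30.6% and 21.0% at 4 h. In the longest gene-free stretch of each of the 7 chromosomes, between 119587 and 347790 bp long, the 24 h list had 0 peaks, against 476, 271 and 455 peaks at 4 h. Long gene-free stretches of the Neurospora genome are largely A:T-rich remains of repeats.

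**Figure D4:**
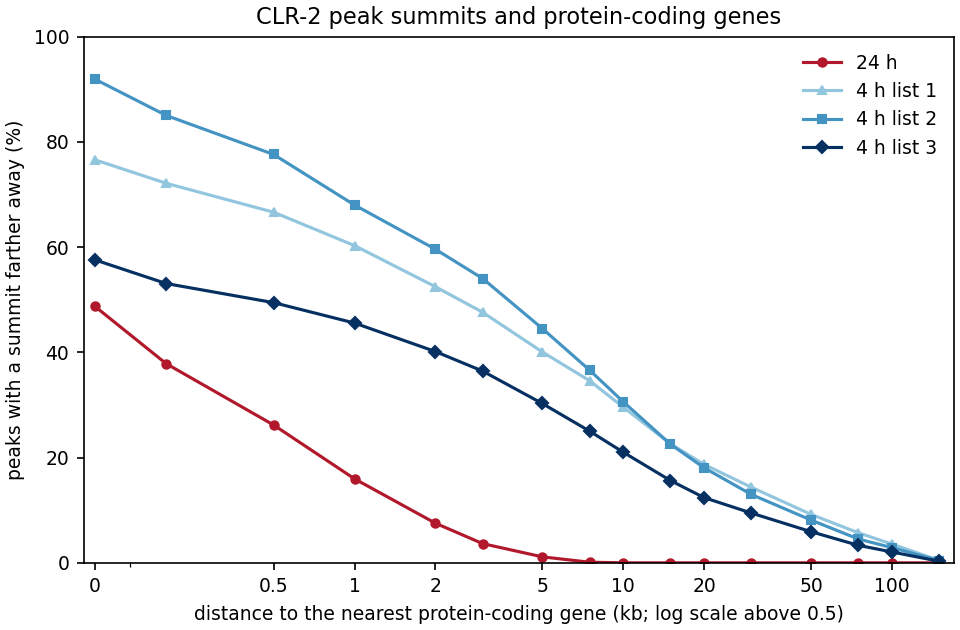
Percent of CLR-2 peaks whose summit lies farther from the nearest protein-coding gene than the distance on the horizontal axis, in kb on a log scale above 0.5, for the 24 h list and the 3 4 h lists. The 24 h curve falls to 1.14% at 5 kb and to 0 at 10 kb, where the 4 h curves stand between 21.0% and 30.6%.

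The peaks far from genes were shared among the 4 h lists. Of those in 4 h list 1, 80.4% overlapped list 2 and 77.3% list 3, and 1.05% overlapped the 24 h list. In list 2, 98.0% and 92.8% overlapped lists 1 and 3, and 1.84% the 24 h list. In list 3, 98.1% and 75.4% overlapped lists 1 and 2, and 1.29% the 24 h list. Of the 4 h peaks that both other 4 h lists shared, between 60.2% and 63.9% were far from genes. With only peaks within 5 kb of a gene, 17.4%, 29.7% and 28.9% of lists 1, 2 and 3 overlapped the 24 h list, beside 22.4% to 60.8% for the 4 h lists among themselves. For list 3, the overlap near genes with the 24 h list, 28.9%, was above that with list 2, 22.4%.

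**Figure D5:**
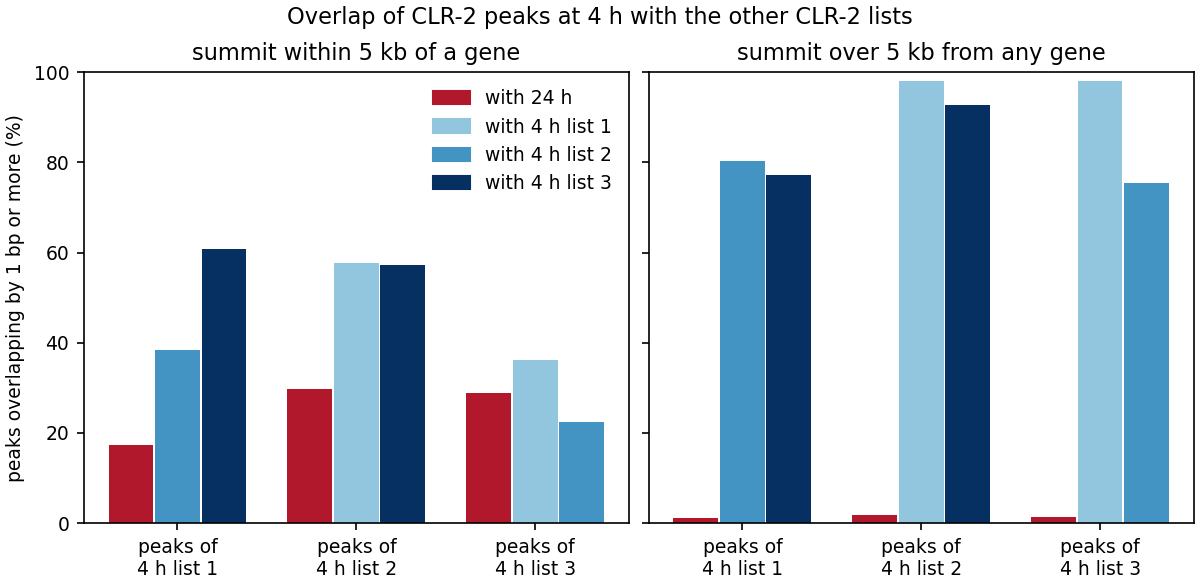
Percent of the peaks of each 4 h list that overlapped the 24 h list (left bar of each group) and the other 4 h lists, for summits within 5 kb of a gene (left panel) and over 5 kb from any gene (right panel). Near genes the bar for the 24 h list stands at 17.4% to 29.7%, and far from genes at 1.05% to 1.84% beside 75.4% to 98.1% for the 4 h lists.

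A low share of peaks far from genes was not particular to the 24 h library. Over the 13 lists of the other groups it lay between 0.510% and 38.8%, with 4 lists under 2%, 1 of which, CLR-1 on sucrose list 2, also had 0 peaks in the longest gene-free stretches. The rest of the 4 were XLR-1 on Avicel. The only other 24 h list, of CLR-1 on Avicel, had 3.59% far from genes and 76 peaks in these stretches. Whether the 24 h CLR-2 library differed from those at 4 h in this share because of its time, its genotype or its processing cannot be told apart.

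Peaks were broader at 24 h than at 4 h. The median width was 2758.5 bp at 24 h, against 1025.5, 2242 and 1258 bp in 4 h lists 1 to 3. Where peaks overlapped, the 24 h peak was the wider in 89.7%, 70.0% and 93.3% of cases against the widest overlapping peak of lists 1, 2 and 3. The median ratio of their widths was 3.69, 1.37 and 2.3. At the 29 genes with a near summit in all 4 lists, the median width was 5845 bp at 24 h, against 953, 3165 and 2440 bp at 4 h. The order of the widths followed the order of the median tags per peak in the 4 lists, and the part of depth in it was not tested. In all, peaks covered 5.51 Mb at 24 h, or 13.6% of the 7 chromosomes, against 6.05, 4.96 and 7.11 Mb at 4 h. The widest 24 h peak, of 19156 bp on chromosome I between 6767835 and 6786990, had a fold of 6.5, overlapped 2 4 h lists, and no gene was named beside it.

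By the RefSeq gene limits, summits lay inside a gene in 51.2% of 24 h peaks, against 23.4%, 8.0% and 42.4% in 4 h lists 1 to 3. The authors' columns place the summit in a gene in 37.92% of 24 h peaks, against 16.92%, 1.64% and 37.96% at 4 h. By these columns, 4 h list 3 was thus level with the 24 h list. Upstream of a gene, the median distance to the named start codon was 1534 bp at 24 h, against 9647.5, 11067.5 and 5894.5 bp at 4 h. No gene was named beside more than 4 peaks at 24 h. At 4 h, NCU09667 was named beside 102, 55 and 107 peaks in lists 1 to 3. Counts of genes at 4 h therefore include many genes with no summit near them.

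Of the 1250 genes named in at least 2 4 h lists, 485 (38.8%) were named at 24 h, which is 22.9% of the 24 h genes and 4.99% of all protein-coding genes. Of the 406 genes in all 3 4 h lists (4.17%), 200 (49.3%) were named at 24 h (2.06%). A shared name often did not mean that the peaks with most tags had summits close together. Between these peaks, the 24 h summit at the 200 genes was a median of 4215, 3716 and 4420 bp from those of 4 h lists 1 to 3. In 105 of the 200, at least 1 of these 4 h summits was more than 5 kb away. Other 4 h peaks can lie nearer, and the nearest was not measured for the 200. At vib-1, the 24 h peak overlapped a peak in 2 4 h lists, although the summits compared were 8234, 11694 and 11707 bp apart. The other genes in all 3 4 h lists (2.12%) were not named at 24 h. In the 12 of these with the highest 4 h tags percentiles, the peaks with most tags had summits between 2961 and 135465 bp from the start codon. These peaks had folds of at most 3.42, the value at NCU09821 in list 2. Other 4 h peaks lay nearer at some of the 12, since NCU10430 and NCU11427 were named within 1500 bp in all 3 4 h lists, and NCU05742 and NCU07250 in 2.

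The genes with a 4 h summit near the start codon in all 3 lists and none at 24 h had lower folds in 4 h lists 2 and 3 than the 29 shared ones. There were 31 of them, NCU10430 and NCU11427 included, 24 of which were not named at 24 h at all, and none was in the 10 lists. Their median fold was 0.6, 2.25 and 1.03 in 4 h lists 1 to 3, beside 0.43, 8.62 and 4.92 for the 29 shared genes. The 3 4 h summits spanned a median of 467 bp at the 31 genes and of 50 bp at the 29. They included dim-9 (NCU01656), whose nearest 24 h summit was 3355 bp from that of list 3, and nuo20.1 (NCU09460), where this distance was 7574 bp. At NCU16947, the 3 4 h summits lay within 34 bp of each other, 568, 602 and 570 bp from the start codon, with folds of 1.98, 3.15 and 3.2, and the nearest 24 h summit was 12676 bp away.

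In no 4 h list but at 24 h were 950 genes, 44.8% of those named at 24 h and 9.76% of all. The 12 of these with most 24 h tags included hgt-1 and the beta-glucosidase gene gh3-6 (NCU07487), whose products take up and release sugars. At gh3-6 the 24 h peak had 13268 tags, a fold of 5.17 and a summit 2172 bp upstream, and no 4 h peak overlapped it. The 24 h peak of NCU06657 had 13692 tags, a fold of 3.89 and a summit 8 bp from the start codon, and again no 4 h peak overlapped it. At NCU01386, by contrast, the 24 h peak had a fold of 7.55 and overlapped all 3 4 h lists, whose summits led to other genes. Of the list members, gh3-4 (NCU04952), an extracellular beta-glucosidase gene, had a fold of 2.9 with its summit 379 bp upstream at 24 h and no overlapping 4 h peak. The xylose reductase gene xr (NCU08384) had a fold of 2.8 and an FDR of 29.6% at 24 h, and the monooxygenase gene gh61-11 (NCU07520) a fold of 3.66 and an FDR of 22.4%. The median 24 h FDR was 63.3% over the 794 peaks in no 4 h list, beside 0% over the 107 in all 3.

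The 24 h CLR-1 list on Avicel overlapped more of the 24 h CLR-2 peaks than any 4 h CLR-2 list did. This list, from 1 library with 8110 peaks on the 7 chromosomes with a median width of 224 bp, overlapped 65.6% of the 24 h CLR-2 peaks. The share was 86.0% for CLR-2 peaks in all 3 4 h lists and 55.8% for those in none. At 4 h on Avicel, the 3 CLR-1-GFP lists overlapped 29.3%, 15.1% and 38.5% of the 24 h CLR-2 peaks, and the list of V5-tagged CLR-1 18.1%. The 2 CLR-1 lists on sucrose overlapped 21.3% and 44.0%. The 3 XLR-1 lists on Avicel overlapped 27.7%, 14% and 65.9%, the last of them being the longest with 6868 peaks. The length and covered span of these lists differ, and no test was made.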

How the data were processed

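The submitters' processing notes name Bowtie2 as a tool, and the lists are MACS output, per the file headers. Which version, settings and control sample went into peak calling is not given in the sources used here. The authors deposited, for each peak, a count of tags and a score, which is 10 times the −log10 of the p-value, per the file headers. The fold is read as the authors' ratio of tags to local background, and the FDR is deposited as a percent. Positions are on the NC12 assembly. The number of reads per library is unknown, so no counting interval is given. Input and mock samples were not used here.

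Peaks off the 7 chromosomes were left out (0 at 24 h, and 145, 88 and 173 in 4 h lists 1 to 3). Deposited distances to genes were measured from the summit in all 4 lists, checked with a tolerance of 3 bp. Gene entries on another chromosome than their peak were dropped (0 at 24 h, and 4, 2 and 4). Gene symbols and limits came from RefSeq on the same assembly, and 60 of the 88 list genes have a symbol there that is not the locus tag. Overlap meant 1 bp or more. A percentile of 100 marks the peak with most tags, or the highest fold, of its list. A gene's value is that of its peak with most tags, except for the 29 and 31 genes with near summits, where the closest peak was taken. Named were all list members, the 12 top genes of each of 3 sets and those beside the 5 widest 24 h peaks, and the 29 and 31 genes, NCU16947, NCU09667 and the widest peak were singled out after their values were seen. The members and lists were chosen with earlier results of these data known. With 1 list at 24 h nothing was tested. The overlap and distance code was tested on simulated data. Python 3.11.15, pandas 2.3.3, numpy 2.4.6 and matplotlib 3.10.9 were used.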

Additional observations from a re-analysis of the deposited data

How the results depend on the processing

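No paired analysis was possible because the 24 h group has 1 list. Of 61 alternative values, 38 stayed within the spread between the 4 h lists, or within 1.5 times a count, and 23 did not. For the 24 h peaks in at least 2 4 h lists, this spread was the standard deviation of the overlaps with single lists, 15.2 points. It is so wide that 7.36%, without list 3, counted as within it of 21.7%, and the 38 are therefore a lenient count. The differences in width and in tags percentile, the only values here that can change sign, kept theirs. The 24 h peaks in at least 2 4 h lists, 21.7%, were 4.90% with summits within 250 bp, 52.5% in at least 1 list and 6.4% in all 3, and between 7.36% and 13.9% with each 4 h list left out. The 4 h peaks that overlapped the 24 h list, a median of 17.4%, were 4.26% with summits within 250 bp, 9.17% with an overlap of at least 50% of the shorter peak, and 28.9% near genes, a setting added after the data were seen (14.2% to 19.1% with a list left out). The summit distance of 1111 bp was 199 bp at an FDR of at most 5%, which leaves 3 peaks in 4 h list 2 (719.5 to 1185 bp with a list left out). The 24 h median width exceeded that at 4 h by 1500.5 bp, by 702.5 bp in equally long lists of 1672 peaks and by 2767 bp at that FDR. The median tags percentile of 24 h peaks in at least 2 4 h lists exceeded that of peaks in none by 34.5, by 37.8 when ranked by tags per bp, and by 31.9 to 41.5 with a list left out. The 485 genes in common were 283 in equally long lists, 74 at that FDR, 1172 in at least 1 4 h list, 200 in all 3, 753 when assigned again from summits (which named 2454 genes at 24 h), 301 with the nearest gene only, 166 within 1500 bp, and 216 to 383 with a list left out. The 36 list genes in common were 21 to 29 with a list left out, 21 of them without 4 h list 3. The 29 genes with a near summit in all 4 lists were 35 to 97 with a list left out, also added after the data were seen.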
